A study of Mus musculus with 13 samples.

Results

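The genes described here are 10 genes of germ cells and meiosis, chosen by symbol: Dazl, Ddx4, Sycp1, Sycp2, Sycp3, Mael, Tex101, Hormad1, Stk31 and Brdt, which are 10 of the 24421 genes in the count tables. The RNA came from the female mouse ES cell line F1-2.1, whose parents were CAST/Ei and 129/Sv/Jae mice and which grows on γ-irradiated fibroblast feeders. All 4 libraries come from clone A2, a single clone that keeps its endogenous CTCF and carries a Tet-on transgene for CTCF S224E, in which glutamate takes the place of the phosphorylated serine. The +dox cells had 1 μg/mL doxycycline (dox) for 6 days and the −dox cells had none, with 2 biological replicates of each, and polyadenylated RNA was counted per gene. With dox the transgene's vector expresses FLAG-tagged CTCF together with EGFP. No RNA from cells given dox without the S224E transgene, or induced for wild-type CTCF, was analysed here. Effects of dox, of EGFP, of added tagged CTCF and of the S224E change therefore cannot be told apart. The p-values measure the spread between these 2 replicates of 1 clone.

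Genes of this kind are active in germ cells, and many of them have CpG-rich promoters that become DNA methylated after implantation and stay methylated in somatic cells. In ES cells many germline promoters are also held down by a non-canonical Polycomb complex that reaches E-box and E2F sequences through MGA, MAX and E2F6, and by the H3K9 methyltransferase SETDB1. Female ES cells with both X chromosomes active are known to carry less DNA methylation than male lines. DNA methylation itself was not measured in these data, so the genes are described by their polyadenylated RNA alone.

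The promoters are shown first, because the letters E-box (CACGTG) and E2F (TTCCCGC, searched with its reverse complement GCGGGAA) mark the sequences that those repressors are known to use. Each window is the 250 bases before the start of the counted transcript, read 5′ to 3′ on the strand of the gene from the mm9 genome. Sycp3, Ddx4 and Hormad1 were chosen as the genes with both motifs, and Dazl and Tex101 as genes with neither. The capitals mark the motif matches.
Sycp3 (chr10:87922082-87922331, plus strand): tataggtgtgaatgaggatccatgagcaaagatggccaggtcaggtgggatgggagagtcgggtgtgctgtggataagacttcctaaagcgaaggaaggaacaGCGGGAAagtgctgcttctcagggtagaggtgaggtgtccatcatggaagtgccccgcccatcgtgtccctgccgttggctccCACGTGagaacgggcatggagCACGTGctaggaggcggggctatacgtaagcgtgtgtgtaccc
Ddx4 (chr13:113442519-113442768, minus strand): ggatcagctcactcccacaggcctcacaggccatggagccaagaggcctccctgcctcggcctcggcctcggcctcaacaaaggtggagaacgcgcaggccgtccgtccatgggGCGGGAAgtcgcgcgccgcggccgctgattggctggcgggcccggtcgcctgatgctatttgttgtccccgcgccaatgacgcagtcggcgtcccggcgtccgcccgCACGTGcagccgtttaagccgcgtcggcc
Hormad1 (chr3:95363349-95363598, plus strand): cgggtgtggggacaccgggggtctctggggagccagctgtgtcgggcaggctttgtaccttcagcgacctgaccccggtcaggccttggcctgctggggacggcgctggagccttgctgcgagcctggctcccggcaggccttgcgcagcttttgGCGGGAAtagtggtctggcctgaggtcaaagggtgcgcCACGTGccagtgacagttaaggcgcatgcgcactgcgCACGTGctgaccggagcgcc
Dazl (chr17:50432946-50433195, minus strand): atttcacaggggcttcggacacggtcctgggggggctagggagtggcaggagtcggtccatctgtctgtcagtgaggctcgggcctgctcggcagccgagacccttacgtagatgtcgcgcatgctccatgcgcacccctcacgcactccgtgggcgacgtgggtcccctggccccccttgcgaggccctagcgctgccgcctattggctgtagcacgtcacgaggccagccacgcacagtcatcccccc
Tex101 (chr7:25457070-25457319, minus strand): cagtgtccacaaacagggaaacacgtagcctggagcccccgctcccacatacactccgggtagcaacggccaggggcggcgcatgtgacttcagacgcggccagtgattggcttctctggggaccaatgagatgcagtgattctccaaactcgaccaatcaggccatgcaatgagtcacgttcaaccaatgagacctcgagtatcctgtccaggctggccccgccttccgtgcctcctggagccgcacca

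An E-box stood in 7 of the 10 windows, against 6.65% of the 24349 windows of all genes. Sycp3 and Hormad1 each had 2 of them, and Ddx4, Sycp1, Mael, Stk31 and Brdt had 1 each. The E2F letters stood in 3 of the 10 windows, against 4.72% of all windows, and both motifs together in 3 of 10 against 0.398%. The 2 motifs share no letters where they match. Counted from the start site, the E2F match of Sycp3 began at base -147 and its E-boxes at -64 and -43, while those of Hormad1 began at -95, -57 and -20. Dazl, Sycp2 and Tex101 had neither motif in this window. The windows held a median of 17.5 CpG, against 9 in all genes, from 7 CpG in Sycp2 to 31 in Ddx4. These matches are a description of the letters and were not tied to binding in these cells. Each motif holds a CpG, and the shares above are over all windows, not over windows equally rich in CpG.

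**Figure D1:**
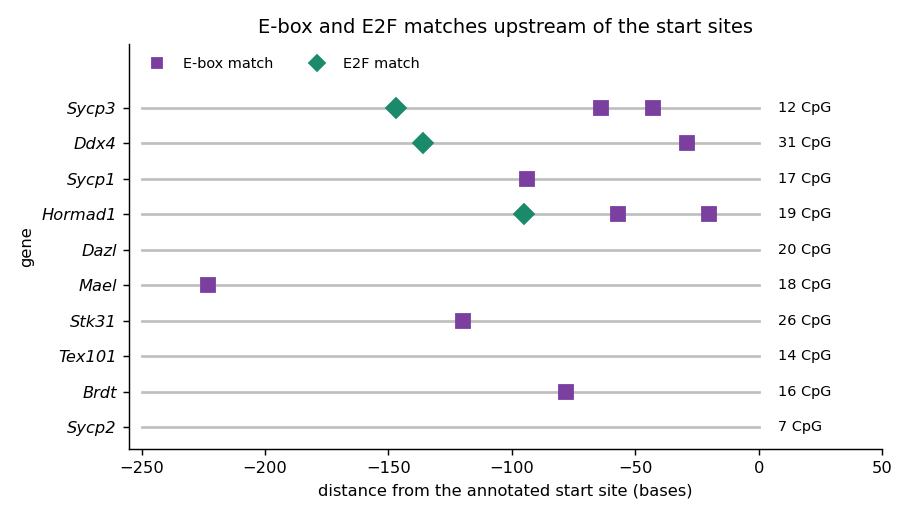
Positions of E-box matches (purple squares) and E2F matches (green diamonds) in the 250 bases before the annotated start site of each gene, with distance in bases on the horizontal axis and the number of CpG in the window at the right. E-boxes lie in 7 of the 10 windows, and Sycp3, Ddx4 and Hormad1 hold both motifs.

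All 10 genes had reads in every library, from 36 for Tex101 to 918 for Sycp1, so none was silent in the sense of having no reads. The mean of each was 1 CPM (read counts scaled to library size by TMM) or more. On a scale of CPM per kb of counted exon, which allows levels to be compared between genes, Sycp3 had the highest mean level, 13.8 ± 3.91 (SD over 4 libraries), and Sycp2 the lowest, 0.601 ± 0.114. Between them the mean levels in CPM per kb were 9.35 for Ddx4, 9.16 for Sycp1, 8.28 for Hormad1, 7.30 for Dazl, 6.36 for Mael, 5.01 for Stk31, 1.62 for Tex101 and 0.669 for Brdt. The ranges over the 4 libraries overlapped between neighbours in this order except at 2 steps: all libraries had more Stk31 (3.87 to 5.78) than Tex101 (1.13 to 2.17), and more Tex101 than Brdt (0.560 to 0.729). Per kb, Sycp3 lay above 70.1% of the 20044 genes tested, while Sycp2 lay above 31.7% of them.

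**Figure D2:**
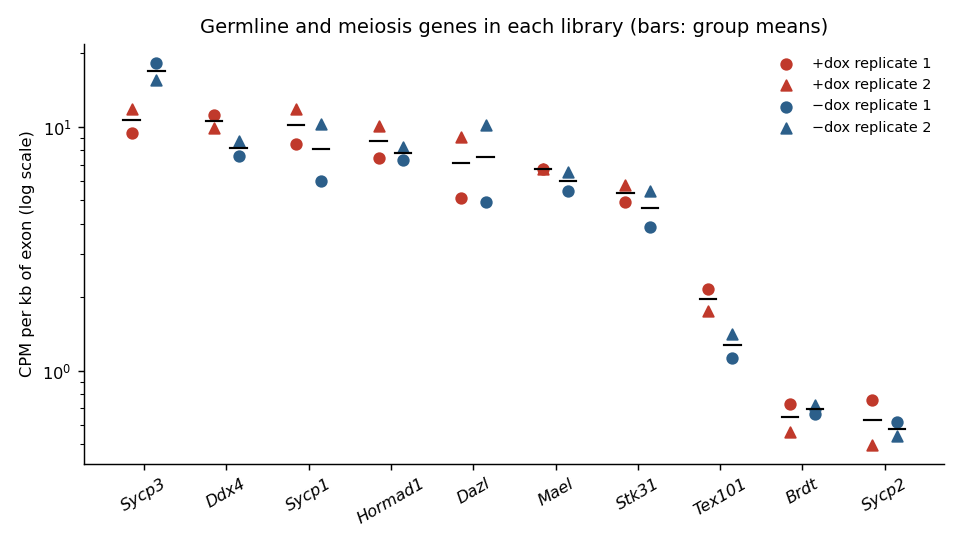
Level of each gene in CPM per kb of counted exon, on a log scale, in the 2 +dox libraries (red) and the 2 −dox libraries (blue), with circles for replicate 1, triangles for replicate 2 and a black bar at each group mean. Sycp3 has both +dox libraries below both −dox libraries, Ddx4, Mael and Tex101 the opposite order, and the groups overlap for the other genes.

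The cells had the RNA of ES cells in all libraries: 8 of 8 ES cell markers were measured, with sums of 4652 to 5921 CPM. Depth was 22899107 and 23136603 counted reads in the +dox libraries, below the 24620964 and 30206085 of the −dox libraries. Fibroblast markers, which the feeders would bring, were measured for 12 of 12 genes and summed to 947 CPM in +dox replicate 1 and 395 CPM in +dox replicate 2, against 274 and 305 CPM in the −dox libraries. Primitive streak markers, genes of early differentiation, summed to 25.4 and 27.7 CPM with dox and 136 and 169 CPM without. All 8 had a log2 fold change below zero. At an adjusted p of 0.01 edgeR's test called 7 of the 8, all lower, against 0.599% of all genes in either direction. The part of either cell population in the values below was not tested. In bulk RNA, fewer cells of a type and less RNA per cell cannot be told apart.

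None of the 10 genes passed the study's threshold, an adjusted p of 0.01, for a difference with dox in edgeR's quasi-likelihood test with Benjamini-Hochberg adjustment over 20044 genes. Over all genes this test called 0.599%, and 0.841% of the 13911 that reached 1 CPM on average, as all 10 did. At an adjusted p of 0.05 edgeR called 0 of the 10 and 2.86% of all genes. DESeq2 called 0 of the 10 as well, where it called 1.87% of all genes. At an unadjusted p of 0.05 edgeR passed 2 of the 10, Ddx4 and Sycp3, in opposite directions, against 17.8% of all genes and 23.3% of those that reached 1 CPM. The fold changes (+dox over −dox) were above 1 for 7 genes and below it for 3, with a median log2 fold change of 0.16 against 0.01 for all genes tested. Within replicate 1 alone the median was 0.29, and within replicate 2 alone it was 0.06. The libraries did not overlap between groups for 4 of the 10 genes, 3 of them higher with dox and 1 lower. Such an order held for 23.3% of all genes in the higher direction and 23.7% in the lower, and for 26.1% and 27.7% of those that reached 1 CPM.

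**Figure D3:**
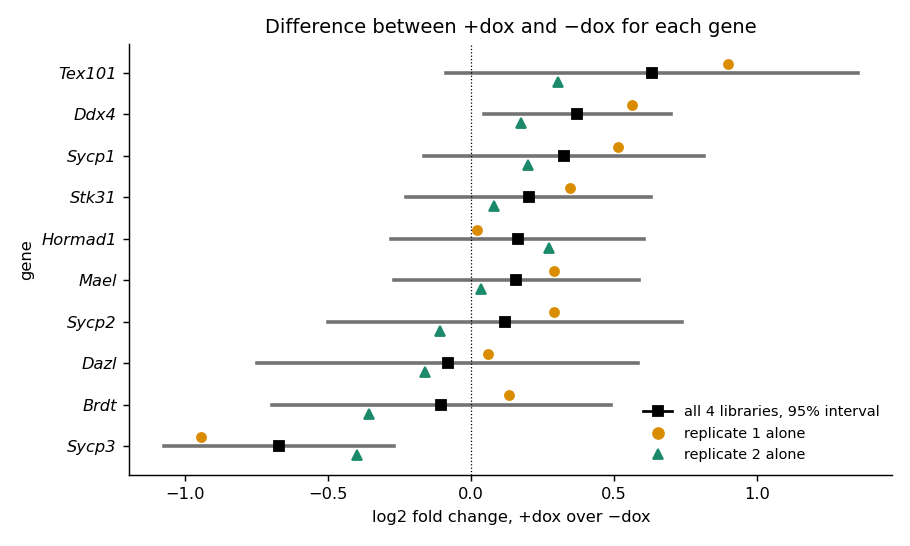
Log2 fold change (+dox over −dox) of each gene, with squares for edgeR's estimate from all 4 libraries, grey lines for its 95% interval, and circles and triangles for replicates 1 and 2 taken alone. The interval leaves out zero only for Ddx4, from 0.05 to 0.70, and Sycp3, from -1.07 to -0.27, and neither passed the adjusted threshold.

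The largest difference that lay in the same order in all libraries was that of Sycp3 (chr10:87922332-87935981, plus strand), which codes for a protein of the lateral elements of the synaptonemal complex, the structure that joins homologous chromosomes in meiosis. Sycp3 had 237 and 299 reads with dox and 620 and 433 without, which made 10.5 and 13.1 CPM with dox and 20.3 and 17.3 CPM without. Both +dox libraries were below both −dox libraries. The mean was 11.8 ± 1.82 CPM with dox and 18.8 ± 2.15 CPM without (SD, n = 2), a log2 fold change of -0.67 (SE 0.19), or a fold of 0.629 with a 95% interval of 0.476 to 0.831. Its adjusted p was 0.0771 in edgeR's quasi-likelihood test and 0.0492 in DESeq2, so it passed the threshold of 0.01 in neither. Without +dox replicate 2, the log2 fold change was -0.84 and edgeR's adjusted p was 0.00299, under the threshold, with the lone +dox library assumed to vary as the −dox libraries did. With each of the other libraries left out, edgeR's adjusted p was between 0.0989 and 0.670. The values of Sycp3 are uncertain in a further way, since 660 of its 1264 exon bases in the GENCODE vM1 annotation also lie in exons of Chpt1 on the opposite strand, and whether the counting used the strand is not given in the sources used here. Chpt1, a choline phosphotransferase gene, had 148 and 197 reads with dox and 230 and 207 without, a log2 fold change of -0.05. The other 9 genes share no exon bases with another gene in the annotation.

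Sycp1 and Sycp2 code for other proteins of the same structure, the transverse filament and a partner of SYCP3 in the lateral element. Sycp1 (chr3:102622422-102740023, minus strand) had 29.1 and 40.2 CPM with dox and 20.3 and 35.0 CPM without. Its replicates were far apart within each condition, and the groups overlapped. The log2 fold change of Sycp1 was 0.33 (SE 0.23), with a 95% interval of -0.16 to 0.82 and an adjusted p of 0.506 in edgeR's test. Sycp2 (chr2:178080001-178142363, minus strand), with 64 to 106 reads per library, had 4.26 and 2.80 CPM with dox and 3.47 and 3.03 CPM without. Its +dox libraries lay on either side of both −dox libraries. The log2 fold change of Sycp2 was 0.12 with a wide 95% interval, from -0.50 to 0.74.

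Hormad1 (chr3:95363599-95389720, plus strand) codes for a protein of the unsynapsed chromosome axis. It had 10.6 and 14.3 CPM with dox and 10.4 and 11.8 CPM without. The lower +dox library lay between the −dox libraries, and the log2 fold change was 0.16, with a 95% interval of -0.28 to 0.61.

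Among the genes for RNA-binding proteins and RNA helicases, Ddx4 (chr13:113388541-113442518, minus strand), the mouse Vasa gene for a germ cell helicase, was the one whose groups stood apart. It had 714 and 637 reads with dox and 654 and 619 without, which made 31.7 and 27.9 CPM with dox and 21.4 and 24.7 CPM without. Both +dox libraries were above both −dox libraries. The mean was 29.8 ± 2.70 CPM with dox and 23.0 ± 2.30 CPM without (SD, n = 2), a fold of 1.29 with an adjusted p of 0.208 in edgeR's quasi-likelihood test. The log2 fold change of Ddx4 was 0.57 in replicate 1 and 0.18 in replicate 2. From all libraries together it was 0.37. It was 0.28 without +dox replicate 1, 0.46 without +dox replicate 2, 0.27 without −dox replicate 1 and 0.48 without −dox replicate 2.

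Dazl (chr17:50418718-50432945, minus strand), which codes for an RNA-binding protein needed for germ cell development, varied more between replicates than between conditions. It had 339 and 611 reads with dox and 441 and 751 without, which made 15.1 and 26.8 CPM with dox and 14.4 and 29.9 CPM without. In both conditions replicate 2 was far above replicate 1. The mean was 20.9 ± 8.27 CPM with dox and 22.2 ± 10.9 CPM without (SD, n = 2), and the log2 fold change was -0.08, with a 95% interval of -0.75 to 0.58. On the log2 scale, replicate 2 was above replicate 1 by 0.83 with dox and by 1.05 without. This gap was larger than that of 95.02% of the genes that reached 1 CPM on average in the +dox libraries, and of 99.4% in the −dox libraries. The median gap of those genes was 0.16 and 0.14.

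Sycp1 had the next largest gap in the −dox libraries, where replicate 2 was above replicate 1 by 0.78 on the log2 scale, and by 0.47 with dox. Of the 10 genes, 5 were higher in replicate 2 than in replicate 1 in both conditions: Dazl, Sycp1, Mael, Hormad1 and Stk31. The share of all genes with this order was not counted, so the 5 are a description only. The gap of Mael with dox was close to zero, 0.0042. Averaged over the 10 genes, the centred log2 CPM was lowest in −dox replicate 1, at -0.20, against 0.09 in the other −dox library and 0.01 and 0.10 in the +dox libraries. The median log2 fold change of the 10 genes was 0.01 without −dox replicate 1, 0.38 without −dox replicate 2, 0.28 without +dox replicate 1 and 0.08 without +dox replicate 2, so its size depended on each of the 4 libraries.

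Mael (chr1:168131516-168168875, minus strand) acts in the silencing of transposons by piRNAs, the small RNAs of germ cells. It had 10.26 and 10.29 CPM with dox and 8.38 and 10.04 CPM without. The +dox libraries were above both −dox libraries, but by little over the higher one. The log2 fold change of Mael was 0.16 (SE 0.20), with an adjusted p of 0.720 in edgeR's test. Stk31 (chr6:49345603-49419501, plus strand), a kinase-like gene of germ cells with a Tudor domain, had 15.9 and 18.6 CPM with dox and 12.4 and 17.5 CPM without. These overlapped, with a log2 fold change of 0.20 and a 95% interval of -0.23 to 0.63.

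Tex101 and Brdt have known roles in later male germ cells. Tex101 (chr7:25453031-25457069, minus strand), a surface glycoprotein gene needed for sperm to pass into the oviduct, had 51 and 42 reads with dox and 36 and 37 without, or 2.27 and 1.84 CPM against 1.18 and 1.48 CPM. Both +dox libraries were above both −dox libraries. The fold was 1.55, with a 95% interval of 0.941 to 2.55 and an adjusted p of 0.356 in edgeR's quasi-likelihood test, so at this depth the difference was within the counting and replicate error. Brdt (chr5:107760213-107816077, plus strand), a testis bromodomain gene that acts on chromatin in spermatids, had 3.42 and 2.63 CPM with dox and 3.11 and 3.39 CPM without. The −dox libraries lay within the range of the +dox libraries, and the log2 fold change of Brdt was -0.10 with a 95% interval of -0.70 to 0.49.

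By the rule set for likeness, the 5 genes nearest to the mean profile of the 10 genes over the 4 libraries were Usp27x, R3hdm2, 2810029C07Rik, Pvr and Hexim1, at distances of 0.02 to 0.03 on the centred log2 CPM scale. Each of these was lowest in −dox replicate 1. This follows from the rule, which picked genes near a profile that is lowest there. With 4 libraries such a likeness is a description only.

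Other genes of the germline programme were taken from 4 lists with 59 genes, all with reads. Of these, 0 passed an adjusted p of 0.01 in edgeR's test and 12 an unadjusted p of 0.05, 3 of them higher and 9 lower with dox, a share near the 17.8% of all genes given above. DESeq2 called 3 of the 59, against 1.87% of all genes. The median log2 fold change over the 59 genes was -0.09, beside 0.16 for the 10 genes and 0.01 for all genes tested. Fold changes were below 1 for 13 of 15 genes of meiotic recombination, with a median log2 fold change of -0.24, and for 9866 of the 20044 genes tested, but 0 of the 15 passed the adjusted test by edgeR or DESeq2 and 1 an unadjusted p of 0.05.

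The list of synaptonemal complex, axis and meiotic cohesin genes holds the partners of Sycp1 to Sycp3. Of its 10 genes, 7 had a log2 fold change below zero and 3 above, with a median of -0.25. Its genes of highest mean CPM (not scaled by exon length), Trip13 and Syce2, had log2 fold changes of -0.05 and -0.25. Smc1b, 1 of several meiotic cohesin subunits in the list, was chosen after its values were seen. It had 16.0 and 15.0 CPM with dox and 22.9 and 30.0 CPM without, both +dox libraries below both −dox libraries. Its log2 fold change was -0.77, and it was called by DESeq2 (adjusted p = 0.00740) but not by edgeR's quasi-likelihood test (adjusted p = 0.0354). Syce1, also chosen after its values were seen, went the other way, with 50.7 and 51.9 CPM with dox and 37.3 and 36.3 CPM without. The log2 fold change of Syce1 was 0.48, with an adjusted p of 0.0542 in edgeR's quasi-likelihood test and 0.0155 in DESeq2. For the recombination list, the genes of highest mean CPM (not scaled by exon length) were Tex15 at -0.09 and Psmc3ip at 0.02 on the log2 fold change scale.

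The piRNA pathway list of 18 genes had a median log2 fold change of 0.09. Tex19.1, a germline gene that restrains transposons, had 192 and 214 CPM with dox and 144 and 139 CPM without. Both +dox libraries were above, by 1.43-fold. Its adjusted p was 0.0169 in edgeR's quasi-likelihood test and 3.15e-04 in DESeq2, so the call depended on the test. Tdrd12 had 94.5 CPM with dox and 92.9 CPM without.

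The list of germ cell specification and meiotic entry, with 16 genes, had a median log2 fold change of -0.08. Sohlh2, a transcription factor gene of early germ cells, had 94.9 and 117 CPM with dox and 136 and 164 CPM without, a log2 fold change of -0.50 with an adjusted p of 0.0520 in edgeR's test. The log2 fold change of Sohlh2 was -0.66 without +dox replicate 2 and -0.36 without +dox replicate 1. It was -0.63 without −dox replicate 1 and -0.36 without −dox replicate 2. Tfap2c had 145 CPM with dox and 148 CPM without. Kit, the stem cell factor receptor gene, chosen after its values were seen, had 61.4 and 69.9 CPM with dox and 92.7 and 103 CPM without. Its adjusted p was 0.0212 in edgeR's quasi-likelihood test and 0.00126 in DESeq2.

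**Figure D4:**
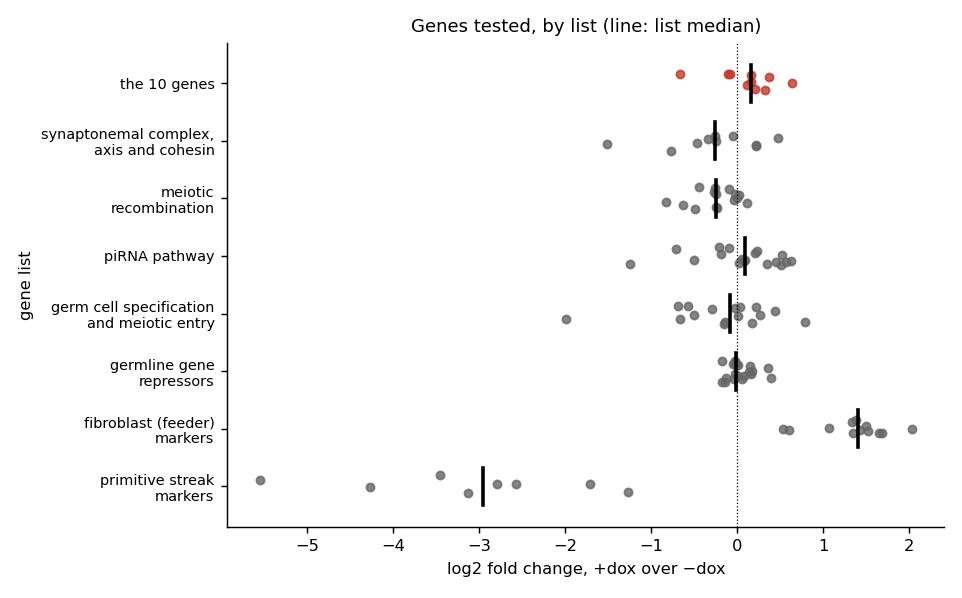
Log2 fold change (+dox over −dox) of each tested gene of the 10 genes (red), of 4 lists of other germline genes, of germline gene repressors, and of fibroblast and primitive streak markers (grey), with a black line at each list's median. The medians are 0.16 for the 10 genes, -0.25 to 0.09 for the other germline lists and -0.02 for the repressor list. Those of fibroblast and primitive streak markers are 1.41 and -2.96. The repressor list also holds Tet1 and Tet2.

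The repressors of germline genes were all measured, 21 of 21, and 0 passed edgeR's adjusted p of 0.01, while 2 passed an unadjusted p of 0.05 (17.8% of all genes) and DESeq2 called 1 (1.87% of all genes). Their median log2 fold change was -0.02. Trim28, the co-repressor of KRAB zinc finger proteins, had 2387 and 2409 CPM with dox and 1918 and 1837 CPM without, a fold of 1.28, with an adjusted p of 0.0296 in edgeR's quasi-likelihood test and 0.00472 in DESeq2. Kdm5c, an H3K4 demethylase gene, had 737 CPM with dox and 669 CPM without. Dnmt1, Dnmt3l, E2f6, Mga, Setdb1 and Dnmt3b were chosen after their values were seen, because of their known role in silencing these genes. Dnmt1, the maintenance DNA methyltransferase, had 572 ± 16.5 CPM with dox and 582 ± 22.3 CPM without (SD, n = 2). The log2 fold changes of E2f6, Mga and Setdb1 were 0.01, -0.02 and -0.03. Dnmt3l, the cofactor of the de novo methyltransferases, had 492 and 422 CPM with dox and 348 and 347 CPM without, with an adjusted p of 0.0455 in edgeR's test. Dnmt3b, a de novo DNA methyltransferase gene, had 545 and 329 CPM with dox and 567 and 399 CPM without, a log2 fold change of -0.14 with an adjusted p of 0.735 in edgeR's test.

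Late spermatid genes served as a comparison from the end of male germ cell development. Of 14 such genes, 7 had 0 reads in all libraries: Prm1, Prm2, Tnp1, Acrv1, Catsper1, Akap4 and Pgk2. A count of 0 allows up to 3 reads per library, which is 0.0993 to 0.131 CPM before TMM scaling, and this limit covers counting error only. The genes of this list with the highest level were Odf2, at 383 CPM with dox and 369 CPM without, and Tekt1, at 5.82 and 6.17 CPM. Only these 2 reached a mean of 1 CPM, and neither is specific to spermatids. Of the 7 with reads, 0 passed edgeR's adjusted p of 0.01 or an unadjusted p of 0.05, and DESeq2 called 0.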

How the data were processed

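Reads were trimmed (cutadapt), aligned to mm9 (TopHat2) and cleared of PCR duplicates by the authors, who used HOMER to count unique reads over exons and deposited these raw counts in 2 tables, 1 for each replicate number. Versions and use of the strand are not given in the sources used here. The tables were joined by symbol, and 547 of 24421 genes had different transcripts in them, none of them among the 10 genes described. The 20044 genes with 1 or more counts in any library were scaled by TMM and tested with edgeR 4.0.16 in R 4.3.3 (glmQLFit with legacy=TRUE, glmQLFTest), two-sided, without a block, at a Benjamini-Hochberg adjusted p of 0.01. Standard errors come from the test statistic. Values of replicates alone use a prior count of 2. The script was tested on simulated data. Motifs were searched in mm9 windows of 250 bases. The genes named were the 10, genes of each related list past the threshold or else its 2 genes of highest mean CPM, and the 5 nearest profiles. Others are marked. The genes and lists were chosen with earlier results of these data known. The alternatives were DESeq2 1.42.0, edgeR's likelihood ratio test, adjusted deviances, a replicate block, other scalings and filters, a threshold of 0.05, a prior count of 0.5 and leaving out each library.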

Additional observations from a re-analysis of the deposited data

How the results depend on the processing

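The call of 0 of the 10 genes held under all alternatives except 1, the fit without +dox replicate 2, so the range on leaving out each library was 0 to 1. Over all genes, edgeR called 120 (16 higher with dox), against 375 with DESeq2 (118 higher), 457 with the likelihood ratio test (130 higher), 0 with adjusted deviances, 11 with filterByExpr (0 higher, fewer genes tested), 573 at an adjusted p of 0.05, and 0 (without either −dox library) to 992 (without +dox replicate 1, 296 higher) on leaving out each library, with 877 without +dox replicate 2, most of them (519) higher. The cause was not tested. Where a library was left out, the lone library of its group was assumed to vary as the other group did. Of the related genes edgeR called 0, against 4 with DESeq2 (Smc1b, Tex19.1, Kit and Trim28), 3 with the likelihood ratio test, 5 at 0.05, and 0 (without either −dox library) to 5 (without either +dox library) on leaving out each library. Without +dox replicate 1 these were Smc1b, Tex19.1, Trim28, Tdrd7 and Dnmt3b, and without +dox replicate 2 Smc1b, Tex19.1, Kit, Sohlh2 and Dnmt3l. The median log2 fold change of the 10 genes was between 0.12 (total counts) and 0.17 under other tests, scalings and filters, and between 0.0086 and 0.38 on leaving out each library. With a prior count of 0.5 it was 0.29 in replicate 1 alone and 0.06 in replicate 2 alone. Of 120 values of the 10 genes under the alternatives, 7 had another sign, all of them with an adjusted p above 0.01. A replicate block raised edgeR's count to 786 genes (316 higher), 0 of the 10 and 6 related genes (Smc1b, Tex19.1, Kit, Sohlh2, Dnmt3l and Trim28), and Sycp3 had an adjusted p of 0.0183. The labels say of the replicate numbers only that they are numbers, so whether same-numbered libraries are paired is not known. The deviations of same-numbered libraries correlated at 0.20 over genes, and the main fit used no block. Low counts limit Tex101, Sycp2 and Brdt the most.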
